A study of Homo sapiens with 36 samples.

Results

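The N-glycan branching enzymes are 6 N-acetylglucosaminyltransferases (MGAT1, MGAT2, MGAT3, MGAT4A, MGAT4B and MGAT5), considered here with FUT8, the core fucosyltransferase that works on the same glycans. They were chosen by name, as the enzymes that act in the same pathway as MGAT3, and all 7 were found among the 58219 genes of the RNA data and the 43582 genes of the footprint data. MGAT3 itself was singled out because of its RNA difference at 72 h in these same libraries, so its values at 72 h are given as a description without a test. The other 6 entered for their role in the pathway. The cells were WiT49, a line from an anaplastic Wilms tumor, a childhood kidney cancer, and all results rest on this 1 line. Cells received 2 nM of actinomycin D (actD) or only its vehicle dimethyl sulfoxide (DMSO). The drug intercalates into GC-rich DNA and can block RNA polymerases. Treatment lasted 6 h, 72 h or 2 weeks, and the 2-week schedule was 2 cycles of 7 days, each with 3 days of additive and then 4 days of plain medium. At each time, 3 actD and 3 DMSO libraries were made of total RNA and 3 of each of ribosome footprints, the fragments of RNA that translating ribosomes shield from nuclease, which gives 36 libraries in all.

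N-linked glycans are sugar trees attached to asparagines of secreted and cell-surface proteins. In the Golgi, MGAT1 adds the N-acetylglucosamine that starts a hybrid or complex glycan and MGAT2 adds the next, which completes the base of a complex glycan. MGAT4A, MGAT4B and MGAT5 add further branches, and the branch made by MGAT5 is often extended into chains that galectins bind. MGAT3 adds the bisecting N-acetylglucosamine in the middle of the core, after which MGAT4 and MGAT5 enzymes act poorly on that glycan, and FUT8 adds fucose to its innermost sugar. Kidney is known as a tissue in which MGAT3 and bisected glycans are abundant.

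A pair of start-site sequences is shown because MGAT5 and MGAT2 are the members, other than MGAT3, with the largest RNA differences at 72 h, and these were in opposite directions. Each is the stretch of 250 bases just before a start of the gene in RefSeq on GRCh38.p14, written 5′ to 3′ on the gene's own strand. Capitals mark the GC box GGGCGG, the core of the site read by SP-family factors.
MGAT5, chr2:134119685-134119934, plus strand: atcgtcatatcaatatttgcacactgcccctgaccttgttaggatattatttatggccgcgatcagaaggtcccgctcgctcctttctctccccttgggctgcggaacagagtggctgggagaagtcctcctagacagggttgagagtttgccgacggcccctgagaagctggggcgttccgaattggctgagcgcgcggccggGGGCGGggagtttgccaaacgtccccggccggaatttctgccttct
MGAT2, chr14:49620549-49620798, plus strand: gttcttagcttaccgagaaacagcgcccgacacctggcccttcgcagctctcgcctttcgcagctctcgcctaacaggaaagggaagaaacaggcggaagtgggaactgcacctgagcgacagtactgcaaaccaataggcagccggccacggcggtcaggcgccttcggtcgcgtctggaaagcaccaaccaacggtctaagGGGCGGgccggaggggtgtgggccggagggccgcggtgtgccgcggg
Both held 1 GC box, and 42.6% of 35116 RefSeq windows of 250 bases held GGGCGG or its complement CCGCCC. The share of G and C was 58.4% for MGAT5 and 64.8% for MGAT2, beside a median of 58% over the windows, and the step GC, read 5′ to 3′, occurred 22 and 29 times, beside a median of 20. Of the 7 members, 5 were matched to a RefSeq window at or near their annotated start. Of the other matched members, MGAT4B had 82.4% G and C and 3 copies of CCGCCC. MGAT1 (41.2%) and FUT8 (36%) held neither motif in the window described here. Only 1 window per gene is described, while 6 were listed for MGAT1, 3 for FUT8 and 2 each for MGAT4B and MGAT5.

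For RNA at 2 weeks the treatment in a library's title is the opposite of the treatment in its library name. The groups are therefore referred to by library name, as named actd and named dmso, and differences are named actd minus named dmso. Taking the titles instead turns the sign of every 2-week RNA difference. In addition, the first library named dmso stood apart for MGAT3, as described with that gene, and the 2-week difference of MGAT3, its ratio to MGAT5 and its correlations with other genes are given with and without it.

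RNA libraries held 40221994 to 69240041 counts and footprint libraries 152556 to 1281039. Of these, 25413922 to 49980263 lay on protein-coding genes in RNA and 23134 to 283435 in footprints. In every footprint library most counts lay outside such genes. The footprint library with 1281039 counts, the first actD library of 6 h, held 27153 on protein-coding genes. Levels are given as CPM, the TMM-scaled counts of a gene relative to its library size. A change shared by all genes would not show on this scale. Each table has a scale of its own, and arms are set against each other within 1 time point and assay. Of the nephron progenitor and blastema markers, WT1, IGF2 and LIN28B were above 1 CPM in every RNA library, and IGF2 lay between 1020.2 and 2358.8 CPM. SIX2, CITED1, EYA1, PAX2 and PAX8 stayed under 1 CPM. Epithelial and mesenchymal markers were both present: the keratins KRT8 and KRT18 were abundant and EPCAM lay between 5.98 and 21.7 CPM, while CDH1 (E-cadherin) lay between 0.661 and 3.71 CPM. VIM lay between 157.0 and 435.8 CPM and COL1A1 between 346.3 and 818.0 CPM, while COL1A2 was listed at 0 in every library. Of the endothelial markers, PECAM1 and CDH5 reached at most 0.0784 CPM, but KDR lay between 10.9 and 18.3 CPM at 2 weeks and at 4.37 CPM or less before. Blood markers reached at most 0.42 CPM.

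On GRCh38 (GENCODE release 29), all 7 members are protein-coding genes. MGAT1 lies on chromosome 5 at 180784782 to 180815652 and MGAT4B on the same chromosome at 179797597 to 179806952, both on the minus strand. MGAT2 lies on chromosome 14 at 49620795 to 49623481 and FUT8 on the same chromosome at 65410592 to 65744121, both on the plus strand. MGAT4A lies on chromosome 2 at 98619106 to 98731126 on the minus strand.

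The members differed widely in level in the same cells. Genes are set beside each other per kilobase of exon, counted over all annotated exons of a gene. This length ran from 2687 bases for MGAT2 to 11576 for MGAT1. Which exons the cells used was not examined, so the order between genes rests on this length. On this scale, the mean of MGAT2 RNA was highest in both arms at every time and that of MGAT4B was second. At 2 weeks these 2 did not differ beyond their spread, at 15.4 ± 1.01 and 14.1 ± 1.19 CPM per kb in the named actd libraries, and in the first library named dmso MGAT4B (13.3) lay above MGAT2 (12.9). In the DMSO libraries of 6 h, MGAT2 stood at 22.1 ± 3.19 CPM per kb (SD, n = 3), MGAT4B at 12.5 ± 0.465, MGAT5 at 7.20 ± 0.323 and MGAT1 at 4.40 ± 1.30. MGAT3 (2.42 ± 0.115), FUT8 (2.04 ± 0.140) and MGAT4A (1.56 ± 0.291) made up the low end, and FUT8 and MGAT4A differed by little more than their spread. At 72 h in DMSO, MGAT3 was last at 1.65 ± 0.0984 CPM per kb, next to MGAT4A at 2.25 ± 0.657, from which it did not differ beyond the spread of MGAT4A. By its mean, MGAT5 held the third place in all arms except actD at 72 h, where it was below FUT8, at 2.28 ± 0.277 CPM per kb beside 2.34 ± 0.757, values that did not differ beyond their spread. It was also not above MGAT1 beyond the spread in actD at 6 h (5.13 ± 0.0457 beside 5.05 ± 0.462) and at 2 weeks (4.35 ± 0.297 beside 4.25 ± 0.695 in named actd and 4.35 ± 0.942 beside 3.88 ± 0.692 in named dmso).

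**Figure D1:**
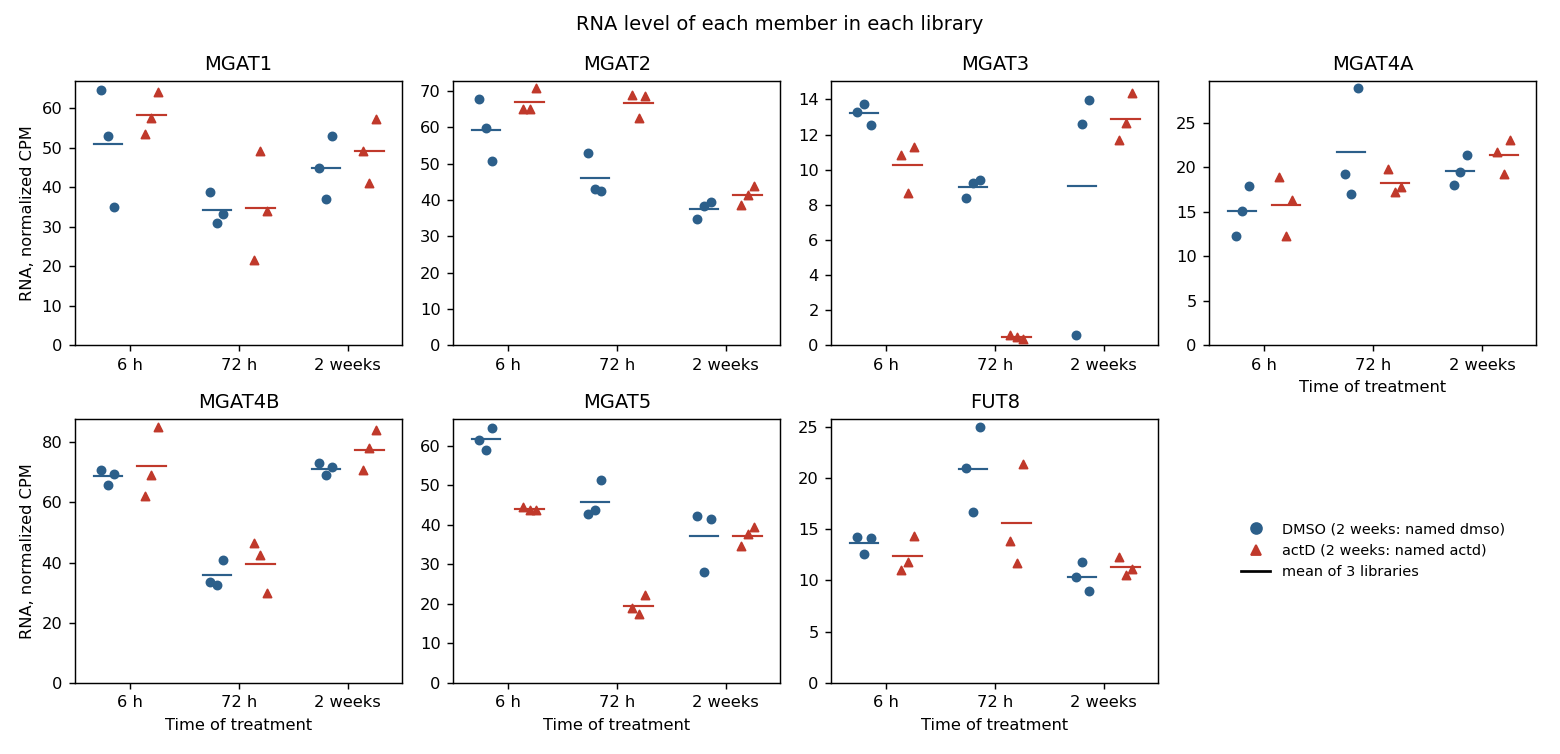
RNA level of each of the 7 members in normalized CPM (vertical axis, from 0) in every library at 6 h, 72 h and 2 weeks; circles are DMSO libraries, triangles actD libraries, and lines the means of 3. MGAT3 is near 0 in all 3 actD libraries of 72 h and in 1 library named dmso of 2 weeks, MGAT5 is lower in actD at 6 h and 72 h, and MGAT2 is higher in actD at 72 h.

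Which members responded to actD was asked in RNA with edgeR's quasi-likelihood test, adjusted over all genes tested. At 6 h none of the 7 members passed, nor did any of the 22669 genes tested (0%). At an unadjusted p under 0.05, 2 members (MGAT3 and MGAT5, both lower in actD) and 1862 genes (8.21%) stood out, and the arms of these 2 members did not overlap, which held for 15.8% of all genes. DESeq2 called 1 member, MGAT5, and 197 genes. At 72 h none of the 6 members besides MGAT3 passed, and 0.00472% of 21195 genes did, 1 gene, MGAT3 itself, which was picked from this contrast. An unadjusted p under 0.05 was reached by MGAT2 (higher) and MGAT5 (lower) and by 13.1% of genes. The arms did not overlap for MGAT2, MGAT3 and MGAT5, as for 20.9% of all genes. DESeq2 called MGAT5 among the 6 and 608 genes in all, and 1 fit over the 3 times, in which all tables share an estimate of the spread, called MGAT2 and MGAT5 among 1212 genes. At 2 weeks none of the 7 passed and none of 21137 genes did (0%), no member reached an unadjusted p under 0.05 beside 1888 genes (8.93%), and no member had arms that did not overlap, beside 15.7% of all genes. DESeq2 called 189 genes at 2 weeks and no member. In a bulk sample, fewer cells that make an RNA and less of it per cell cannot be told apart.

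**Figure D2:**
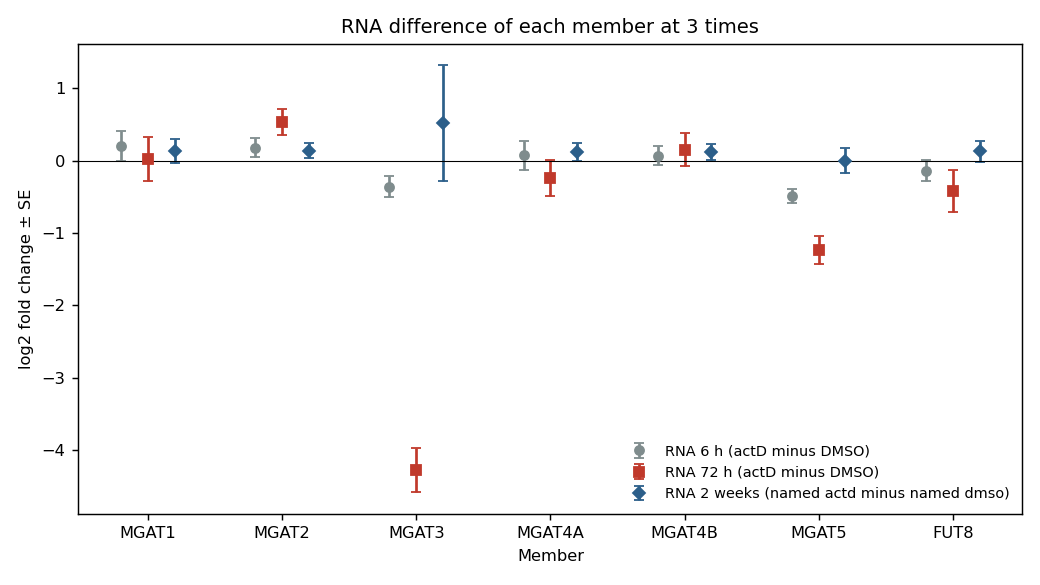
RNA log2 fold change (vertical axis) of each member at 6 h, 72 h and 2 weeks, actD minus DMSO or named actd minus named dmso, with bars of 1 standard error. MGAT3 at 72 h lies at -4.28 and MGAT5 at -1.23, while all other points lie between -0.49 and 0.53.

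MGAT1, the enzyme that opens the pathway to hybrid and complex glycans, showed no difference at any time that exceeded its spread. At 6 h its RNA stood at 53.5, 57.7 and 64.1 CPM in the actD libraries and at 64.8, 53.0 and 34.9 CPM in DMSO, a log2 difference of 0.20 ± 0.21 (SE; edgeR adjusted p = 0.863). At 72 h the actD libraries were at 21.6, 49.1 and 33.9 CPM and the DMSO libraries at 38.7, 30.9 and 33.3 CPM, so the actD libraries spanned the whole DMSO range (0.025 ± 0.30, edgeR adjusted p = 0.979). At 2 weeks the named actd libraries were at 49.2, 41.1 and 57.2 CPM and the named dmso libraries at 44.8, 37.0 and 53.0 CPM (0.13 ± 0.17, edgeR adjusted p = 0.842).

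MGAT2, which completes the base of a complex glycan, was the member with the highest mean per kilobase. In CPM the mean of MGAT4B was above it at 6 h and 2 weeks in both arms. By their means in CPM, MGAT1 was also above MGAT2 at 2 weeks in both arms, and MGAT5 was in DMSO at 6 h. At 6 h MGAT2 stood at 65.1, 65.1 and 70.9 CPM in actD and at 67.8, 59.7 and 50.7 CPM in DMSO, with overlapping arms (0.18 ± 0.13, edgeR adjusted p = 0.780). At 72 h it stood at 69.0, 62.5 and 68.6 CPM in actD and at 52.9, 43.0 and 42.5 CPM in DMSO. Every actD library was above every DMSO library there, by 0.53 ± 0.18 on the log2 scale, yet edgeR's adjusted p was 0.311 and ranged from 0.0329 to 0.676 over the alternative settings, the lowest in 1 fit over the 3 times. On the per-kilobase scale, MGAT2 made up 59.6 ± 2.39% of the summed RNA of the 7 members in actD at 72 h and 44.1 ± 4.70% in DMSO. At 2 weeks the named actd libraries (38.5, 41.3 and 44.0 CPM) overlapped the named dmso libraries (34.7, 38.4 and 39.5 CPM; 0.14 ± 0.11, edgeR adjusted p = 0.727).

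MGAT3 (ENSG00000128268.11), which adds the bisecting sugar, lies on chromosome 22 at 39457344 to 39492194 on the plus strand (GRCh38, GENCODE release 29). At 6 h its RNA was at 10.8, 8.66 and 11.3 CPM in the actD libraries and at 13.3, 13.8 and 12.5 CPM in DMSO. All actD libraries were lower, by 0.36 ± 0.14 on the log2 scale, and this did not pass the test (edgeR adjusted p = 0.586, and 0.545 to 1.0 over the alternatives). At 72 h the actD libraries held 30, 25 and 19 counts, or 0.589, 0.462 and 0.342 CPM, and the DMSO libraries 315, 418 and 650 counts, or 8.41, 9.24 and 9.41 CPM. The lowest DMSO library was thus 14.3 times the highest actD library, and the fitted log2 difference was -4.28 ± 0.31, or 0.0516 of the DMSO level. Leaving out each library in turn gave values from -4.49 to -4.10. Among genes with at least 5 CPM in each library of 1 arm, MGAT3 was the 1 gene at 72 h whose DMSO libraries all lay 8-fold or more above its actD libraries, and none lay as far the other way; these limits were set with its values known.

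At 2 weeks MGAT3 did not follow the labels. The named actd libraries were at 11.7, 12.7 and 14.4 CPM, and those named dmso at 0.576, 12.6 and 13.9 CPM. The first library named dmso, with 33 counts, was 20.3-fold below the lowest of the other 5, at a level within the range of the actD libraries of 72 h, although the tables have separate scales. With this library the log2 difference was 0.51 ± 0.80 (edgeR adjusted p = 0.873), and without it -0.043. Single libraries far below the rest were seen for other genes as well. Over the 18 RNA libraries, 50 such drops were counted (at least 8-fold below each of the other 5 libraries of the table, which all held at least 5 CPM), in 17 of the 18 libraries and 0 to 9 per library, among 10033 to 11062 genes examined in each. In the first library named dmso MGAT3 was the 1 gene of 10826 with such a drop, and no other member had one in any library. The limits of 8-fold and 5 CPM are those used at 72 h, set with the values of MGAT3 known.

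The genes around MGAT3 did not share its difference at 72 h. Within 200 kb, 9 genes passed the filter in at least 1 RNA table, and 8 were tested at 72 h, with log2 differences from -1.41 to 0.34 and none called by edgeR at any time. The nearest on either side were MIEF1, a mitochondrial fission receptor 7.24 kb away (0.23 ± 0.31), and TAB1, an adaptor of the TAK1 kinase 20.3 kb away (-0.041 ± 0.20). ATF4, the transcription factor of the integrated stress response, stood at 0.20 ± 0.33. The lowest was RPL3, a ribosomal protein gene 137 kb away, at -1.41 ± 0.23 (edgeR adjusted p = 0.190). RPL3 RNA was at 260.6 ± 15.1 CPM with the drug and 691.7 ± 155 CPM without it. In the first library named dmso of 2 weeks the 9 neighbours stood between 0.60 times (MIEF1) and 1.65 times the mean of the other 5 libraries. The antisense gene MGAT3-AS1, which overlaps MGAT3 on the other strand, had at most 14 counts in any RNA library.

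**Figure D3:**
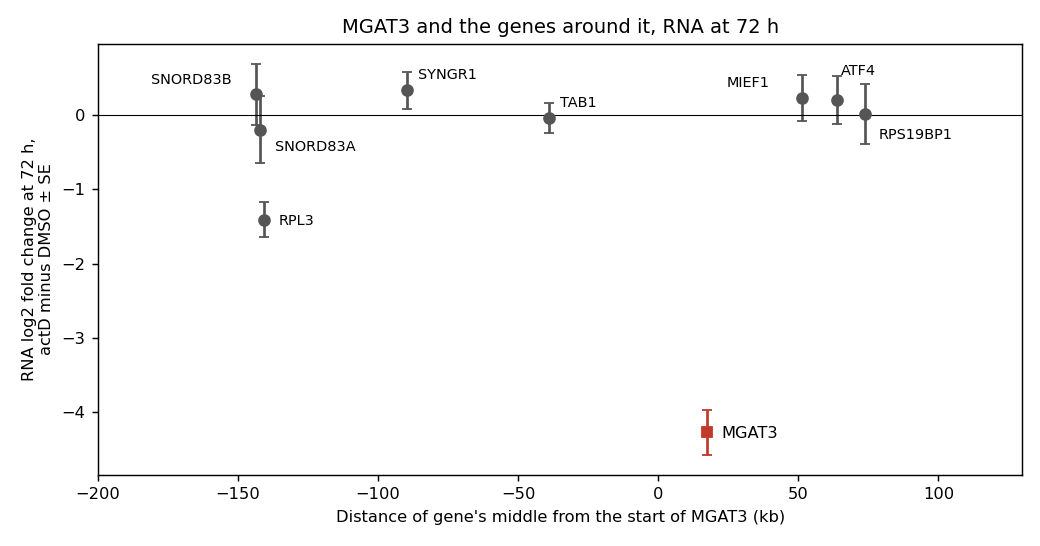
RNA log2 fold change at 72 h, actD minus DMSO, with bars of 1 standard error (vertical axis) for MGAT3 (square) and 8 genes around it (circles) against distance from the start of MGAT3 in kb. MGAT3 lies at -4.28, RPL3 at -1.41, and the other 7 genes between -0.20 and 0.34.

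MGAT4A and MGAT4B make the same branch, and neither differed beyond its spread. MGAT4A stood at 18.9, 12.2 and 16.3 CPM in actD and 12.2, 15.1 and 17.8 CPM in DMSO at 6 h (0.071 ± 0.20, edgeR adjusted p = 0.964). At 72 h its actD libraries were at 19.8, 17.3 and 17.8 CPM and its DMSO libraries at 19.2, 17.0 and 28.9 CPM (-0.25 ± 0.25, edgeR adjusted p = 0.695), and the third DMSO library alone lay above the rest. Without that library the difference was 0.010. At 2 weeks it stood at 21.7, 19.2 and 23.1 CPM in the named actd libraries and 17.97, 19.5 and 21.4 CPM in the named dmso libraries (0.12 ± 0.12, edgeR adjusted p = 0.794).

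Per kilobase, MGAT4B was the more abundant of the pair in both arms at every time. Its actD and DMSO libraries were at 62.2, 69.1 and 85.1 CPM against 70.9, 66.0 and 69.5 CPM at 6 h (0.068 ± 0.14, edgeR adjusted p = 0.945). They were at 46.6, 42.5 and 29.9 CPM against 33.6, 32.5 and 40.9 CPM at 72 h (0.15 ± 0.23, edgeR adjusted p = 0.800). The named actd libraries held 70.9, 78.0 and 84.0 CPM and the named dmso libraries 73.0, 69.1 and 71.7 CPM at 2 weeks (0.12 ± 0.11, edgeR adjusted p = 0.758). MGAT4B overlaps SQSTM1, the autophagy receptor gene, on the opposite strand, and SQSTM1 reached 16604 counts in an RNA library. Whether the counting used strand is not given in the sources used here, so the level of MGAT4B is uncertain.

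MGAT5 (ENSG00000152127.8), on chromosome 2 at 134119983 to 134454621 on the plus strand, makes a branch known from growth factor receptors and integrins. At 6 h its actD libraries stood at 44.5, 43.8 and 43.7 CPM and its DMSO libraries at 61.6, 59.0 and 64.6 CPM. All actD libraries lay below all DMSO libraries, by 0.49 ± 0.099 on the log2 scale. The call depended on the tool, since edgeR's adjusted p was 0.252 and that of DESeq2 0.0218, within a range of 0.0218 to 0.79 over the alternatives. At 72 h the actD libraries were at 19.0, 17.6 and 22.2 CPM and the DMSO libraries at 42.7, 43.7 and 51.3 CPM. The arms lay further apart than at 6 h, at -1.23 ± 0.19 or 0.426 of the DMSO level. Here edgeR's adjusted p was 0.190, and the range over the alternatives ran from 3.37e-05 (DESeq2) to 0.653. At 2 weeks the named actd libraries (34.6, 37.7 and 39.6 CPM) lay inside the range of the named dmso libraries (42.4, 28.0 and 41.5 CPM), with means of 37.3 and 37.3 CPM (edgeR adjusted p = 1.0).

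FUT8, the enzyme of core fucose, had overlapping arms at each time. It stood at 11.0, 11.8 and 14.3 CPM in actD and 14.2, 12.6 and 14.1 CPM in DMSO at 6 h (-0.14 ± 0.14, edgeR adjusted p = 0.856). At 72 h it stood at 13.8, 11.7 and 21.4 CPM in actD and 21.0, 16.7 and 25.0 CPM in DMSO (-0.42 ± 0.29, edgeR adjusted p = 0.564), with 2 of the 3 actD libraries below all DMSO libraries. The 2-week values were 12.3, 10.5 and 11.1 CPM in the named actd libraries and 10.3, 11.8 and 8.99 CPM in the named dmso libraries (0.13 ± 0.15, edgeR adjusted p = 0.816).

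Whether the effect on RNA differed between 72 h and 6 h was tested as an interaction. None of the 6 members besides MGAT3 passed, beside 0.0165% of 24251 genes (4 genes). MGAT5 alone of these 6 reached an unadjusted p under 0.05, as did 8.02% of genes, and its effect was lower at 72 h by 0.76 ± 0.21 on the log2 scale (edgeR adjusted p = 0.437, and 0.0455 to 0.701 over the alternatives, the lowest by DESeq2). DESeq2 called 161 genes in all. The effect on MGAT2 was 0.34 ± 0.23 higher at 72 h, which did not pass (edgeR adjusted p = 0.743). For MGAT3 the fitted value was -3.94 ± 0.30, given without a test since it contains the 72 h contrast.

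MGAT3 and MGAT5 act on the same core, so their ratio was taken within each library. At 6 h the log2 ratio of MGAT3 to MGAT5 was -2.11 ± 0.20 (SD, n = 3) in actD and -2.23 ± 0.13 in DMSO, a difference of 0.12 (two-sided exact permutation p = 0.4, where 0.1 is the smallest that 3 against 3 libraries allow). Both RNAs were lower in the actD libraries there, and their proportion did not differ beyond the spread. With MGAT1 in place of MGAT5 the 6 h difference was -0.61. At 72 h the ratio was -5.42 ± 0.53 in actD and -2.34 ± 0.10 in DMSO, given without a test. At 2 weeks it was -1.53 ± 0.060 in the named actd and -2.97 ± 2.80 in the named dmso libraries, a difference of 1.44 (two-sided exact permutation p = 0.7), and -0.17 without the first library named dmso, whose ratio was -6.20.

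The genes whose RNA followed MGAT3 most closely over the 18 RNA libraries, each table centred on its own mean, were HPS3 (Pearson r = 0.844), KLHL12 (0.839), ASMTL (0.836), DENND5B (0.826) and MDH2 (0.816), of 19404 genes. HPS3 is a subunit of a complex that builds lysosome-related organelles, KLHL12 a substrate adaptor of a ubiquitin ligase that acts on COPII coats, and MDH2 a mitochondrial malate dehydrogenase. These correlations describe 18 libraries that share 3 tables and the treatments, and MGAT3 was under 1 CPM in 4 of them. The choice of these genes rests on the first library named dmso. Without it, an alternative chosen after the data were seen, DENND5B (r = 0.955) was the 1 gene of the 5 still among the 5 highest, and the others ranked from 53 (ASMTL, 0.897) to 329 (HPS3, 0.809). None of the 5 had a difference as large as that of MGAT3, the widest at 72 h being ASMTL at -1.61 ± 0.35 (0.452 ± 0.132 CPM with the drug, 1.38 ± 0.266 without) and DENND5B at -1.05 ± 0.18. Among the members, r with MGAT3 was 0.62 for MGAT5, 0.43 for FUT8, 0.38 for MGAT4A, 0.044 for MGAT1, -0.11 for MGAT4B and -0.46 for MGAT2. Over the 17 libraries without the first library named dmso, r was 0.909 for MGAT5 and -0.80 for MGAT2, and between -0.18 and 0.49 for the other 4. Both arms of a table were centred together, so each r contains the 72 h difference for which MGAT3 was singled out. Such an r adds no support to the differences of MGAT5 and MGAT2 at 72 h.

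Ribosome footprints on the members were few. Over all 18 footprint libraries, MGAT2 had 246 counts, MGAT1 175, MGAT4B 118, MGAT5 73, FUT8 50, MGAT3 11 and MGAT4A 3. MGAT3 was listed at 0 in 11 libraries and MGAT4A in 16. A count of 0 allows up to 3 counts, which corresponded to 3.06 to 7.94 CPM at 6 h, 3.57 to 37.3 CPM at 72 h and 2.70 to 4.65 CPM at 2 weeks. At 72 h MGAT3 had 1 footprint, in the first DMSO library, and none in the other 5 libraries, so a difference in its translation was not detectable at this depth. At 2 weeks its footprints were 2, 2 and 1 in actD and 1, 1 and 0 in DMSO. The titles and names of the footprint libraries give the same treatments, and none of the 6 had more than 2.

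**Figure D4:**
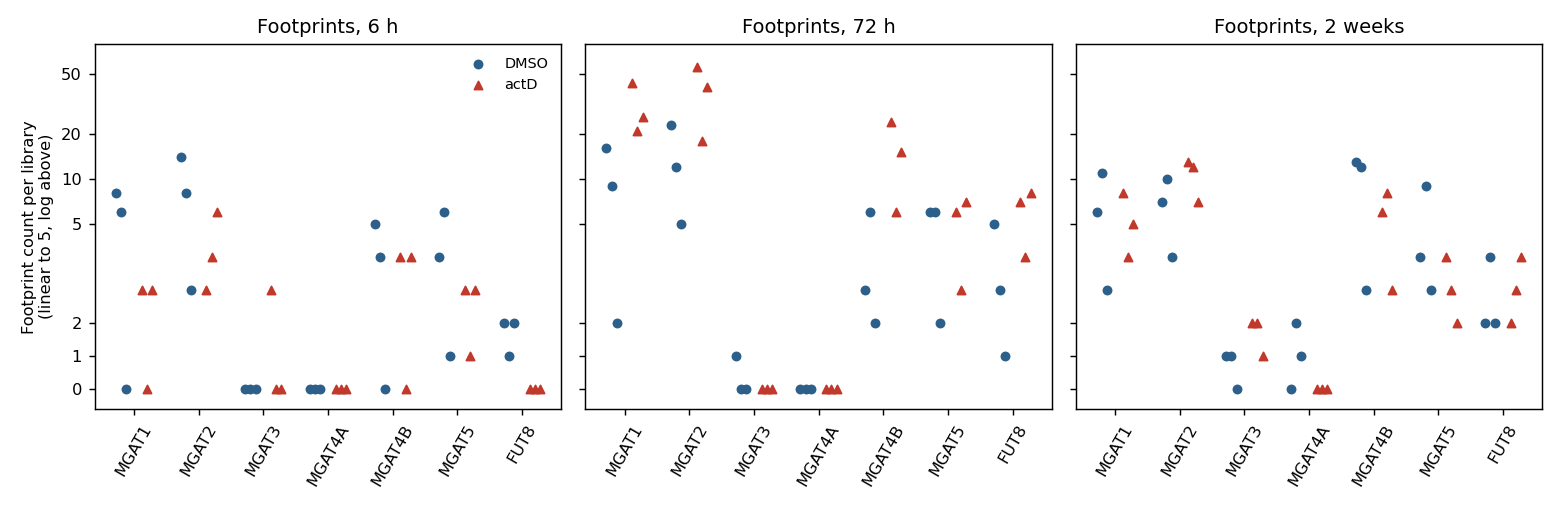
Footprint counts of each member in each library (vertical axis, linear up to 5 and logarithmic above) at 6 h, 72 h and 2 weeks; circles are DMSO and triangles actD libraries. MGAT3 has at most 3 counts and MGAT4A at most 2 in any library, and MGAT2 reaches 56 at 72 h.

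No member passed the filter on low counts in the footprints of 6 h. There FUT8 had 0, 0 and 0 counts in actD and 2, 1 and 2 in DMSO, all at or under the limit that a count of 0 allows. MGAT2, the member with the most, had 3, 4 and 6 counts in actD and 14, 8 and 3 in DMSO, and in CPM its arms overlapped. At 72 h MGAT1 and MGAT2 passed it and neither was called, beside 3.79% of 2426 genes (92 genes). MGAT1 footprints stood at 65.7, 57.1 and 30.9 CPM in actD (44, 21 and 26 counts) and 36.2, 30.2 and 24.9 CPM in DMSO (16, 9 and 2 counts), a log2 difference of 0.66 ± 0.40 (edgeR adjusted p = 0.309). MGAT2 footprints stood at 83.6, 48.9 and 48.8 CPM in actD and 52.0, 40.2 and 62.2 CPM in DMSO (0.29 ± 0.37, edgeR adjusted p = 0.646). MGAT5 did not pass the filter, so it has no test here. Its footprints were 6, 3 and 7 counts in actD (8.48 ± 0.422 CPM) and 6, 6 and 2 counts in DMSO (19.5 ± 5.67 CPM), so the arms held 16 and 14 counts. The third DMSO library, with 2 counts, lay under its own limit of 37.3 CPM for a count of 0, and no difference is read from these values. At 2 weeks MGAT2 alone passed the filter, and it was not called (0.58 ± 0.37, edgeR adjusted p = 0.656), nor was any of 1598 genes (0%), although 137 genes had an unadjusted p under 0.05. DESeq2 called no gene in the footprints of 2 weeks.

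Translational efficiency, the footprint change relative to the RNA change, could be tested for MGAT1 and MGAT2 at 72 h and for MGAT2 at 2 weeks. Neither was called at 72 h, beside 0.433% of 2311 genes (10 genes). MGAT1 stood at 0.49 ± 0.53 (edgeR adjusted p = 0.699) and MGAT2 at -0.37 ± 0.37 (edgeR adjusted p = 0.669). At 2 weeks MGAT2 stood at 0.39 ± 0.31 (edgeR adjusted p = 0.948), none of 1441 genes was called (0%), 74 had an unadjusted p under 0.05, and DESeq2 called 1. These 2-week values take the RNA arms from the library names, which the titles contradict. With the titles, MGAT2 stood at 0.72 (edgeR adjusted p = 0.282) and 27 genes were called.

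The rest of the N-glycan pathway was followed through lists of 71 genes, of which 69 were tested in RNA at each time. None of the 69 was called by edgeR at 6 h, 72 h or 2 weeks, and 7 (10.1%), 8 (11.6%) and 9 (13%) had an unadjusted p under 0.05, beside 8.21%, 13.1% and 8.93% of all genes. DESeq2 called none, 4 and none of them, beside 197, 608 and 189 of all genes. The lists also hold 10 carriers of N-glycans and lectins, such as cadherins, EGFR, MET and galectins, which are not enzymes of the pathway. At 72 h the list medians lay between -0.19 and 0.11 on the log2 scale, beside 0.018 over all genes. The related branching genes of the family were low or off. MGAT5B, which branches O-mannose glycans in brain, reached 7.11 CPM at most and differed by -0.19 at 72 h. MGAT4C had at most 4 counts in any RNA library and MGAT4D was listed at 0 in all.

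The smallest p-values of the lists at 72 h belonged to 3 genes that cap glycans or supply their sugars. Each was lower in every actD library than in every DMSO library, while 20.9% of all genes had arms that did not overlap. The 3 were picked by p-value, so the gap between their arms adds no support. None of the 3 was called by edgeR. DESeq2 called all 3, among 608 genes in all, and, as its 4th gene of the lists, the sialyltransferase ST3GAL3 (DESeq2 adjusted p = 0.0408). ST6GAL1, the sialyltransferase that caps branches, stood at 2.00, 2.22 and 1.62 CPM in actD and 4.81, 5.09 and 5.13 CPM in DMSO (-1.36 ± 0.25, adjusted p = 0.199 by edgeR and 8.29e-05 by DESeq2). GMDS, which starts the synthesis of GDP-fucose, the donor that FUT8 uses, stood at 0.804, 0.925 and 1.57 CPM in actD and 3.04, 3.38 and 4.27 CPM in DMSO (-1.70 ± 0.35, adjusted p = 0.225 by edgeR and 0.00121 by DESeq2). GFPT1, the entry enzyme of the hexosamine pathway that makes the donor of all MGAT enzymes, stood at 88.0, 98.9 and 150.6 CPM in actD and 240.9, 216.2 and 480.9 CPM in DMSO (-1.48 ± 0.37, adjusted p = 0.260 by edgeR and 0.0136 by DESeq2).

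At 6 h the smallest p-values of the lists belonged to OST4, a small subunit of oligosaccharyltransferase (-0.61 ± 0.17, edgeR adjusted p = 0.451), and to the trimming enzymes MAN1B1 (-0.40 ± 0.12, 0.474) and MANEA (0.47 ± 0.14, 0.495). At 2 weeks they belonged to the galactosyltransferase B4GALT1 (0.50 ± 0.14, edgeR adjusted p = 0.427), to GFUS (0.44 ± 0.12, 0.429) and again to GMDS (-0.62 ± 0.22, 0.512). GFUS and GMDS follow each other in the synthesis of GDP-fucose and stood on opposite sides there. In the interaction of 72 h with 6 h, ST6GAL1 (-1.10 ± 0.26, edgeR adjusted p = 0.318), MANEA (-0.94 ± 0.28, 0.445) and ST3GAL3 (-1.02 ± 0.31, 0.458) had the smallest. DESeq2 called 1 of the 69 genes in that interaction, ST6GAL1 (adjusted p = 0.00483). In the footprints of 72 h, 18 of the 71 genes were tested and 1 was called, beside 92 of all 2426 genes tested (3.79%). This was KRTCAP2, a subunit of oligosaccharyltransferase, named after its value was seen. It was higher in actD (2.16 ± 0.42 on the log2 scale, edgeR adjusted p = 0.0473). KRTCAP2 footprints were at 40.3 ± 8.10 CPM with the drug and 9.76 ± 2.84 CPM without it. The call was lost when any of 5 of the 6 libraries was left out and with DESeq2, which called none of the 18, and adjusted p ranged from 0.0409 to 0.242 over the alternatives.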

How the data were processed

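Total RNA and ribosome footprints of WiT49 cells were each deposited as 1 table per time point, in which every library has its column. The deposited values are whole numbers and were handled as estimated counts of reads per gene that the authors made from alignments. The submitters' processing notes name HISAT2, StringTie and the build hg38, while versions, annotation and any use of strand are not given in the sources used here. In the RNA tables of 6 h and 2 weeks, the value 3 occurred 10907 and 10767 times and the value 1 occurred 7134 and 7124 times, so a fragment there can be worth more than 1 count. The labels name 2 RNA extraction kits and 2 RNA library kits without assigning them, so such a batch was not examined. No other per-sample columns were present.

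Identifiers were matched to GENCODE release 29 without their version (99.4% matched). Genes were tested on the counts as deposited with edgeR 4.0.16 (R 4.3.3): TMM, filterByExpr, the two-sided quasi-likelihood test and Benjamini-Hochberg adjustment over all genes, called at an adjusted p under 0.05, each table alone. Standard errors were derived from the fold change and its F statistic. Translational efficiency and the change from 6 h to 72 h were interactions. The alternatives were DESeq2 1.42.0, library totals, no filter, a replicate block, 1 fit over 3 times, the titles of the 2-week libraries, and each library left out. The fitting code was tested on simulated data.

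The members and lists were chosen with earlier results of these data known. All members are named, and 1 cell type marker is not reported here. Other pathway genes are named for the 3 smallest p-values per RNA comparison, neighbours by a distance of 200 kb, and genes like MGAT3 as the 5 highest correlations (log2 of CPM plus 0.5). The labels name no separate cultures, so p-values measure only the spread between libraries, which may be technical. Floors cover counting error only. Replicates of a group differed beyond sampling noise, with a chi-square per degree of freedom of at least 30.6 in RNA and 11.4 in footprints.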

Additional observations from a re-analysis of the deposited data

Results flagged for a closer look

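The RNA effect of actD on MGAT3 differed between the times, at -0.36 at 6 h and -4.28 at 72 h on the log2 scale, a difference of -3.94 in 1 model over both tables. It stands out because effects under the same contrast at 2 times lie far apart. The value comes from the contrast for which MGAT3 was singled out, so it is given without a test and does not count as support. No group had more than 3 libraries, so single libraries could not be tested against their group, and the first library named dmso of 2 weeks (0.576 CPM) is given as a value.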

How the results depend on the processing

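In the tests that count called members, the main count of 0 moved in 4 settings: DESeq2 called 1 member (MGAT5) at 6 h, 1 (MGAT5) at 72 h and 1 (MGAT5) in the change from 6 h to 72 h, and 1 fit over 3 times called 2 (MGAT2 and MGAT5) at 72 h. Leaving out each library called 0 members in every comparison. In the calls over all genes, RNA at 6 h gave 0 in edgeR, 197 in DESeq2, 1 in 1 fit over 3 times and 0 to 6 with each library left out, RNA at 72 h 1 and 608, with 1212 in 1 fit over 3 times and 0 without any library but actD library 1, whose absence gave 3, and RNA at 2 weeks 0 and 189, with 6 by library totals, 1 without the filter and 2 to 10 with each library left out (10 without the third named dmso). Footprints at 72 h gave 92, 7 by library totals, 321 without the filter, and 0 to 282 with each library left out (282 without actD library 3, 55 without DMSO library 3 and 0 without any other). Footprints at 2 weeks gave 11 without the filter. Translational efficiency gave 10 at 72 h, 59 by DESeq2 and 7 to 41 with each library left out, and at 2 weeks 0, 1 by DESeq2, 27 with the titles and 0 to 3 with each library left out. The change from 6 h to 72 h gave 4, 161 by DESeq2 and 1 to 38 with each library left out (38 without actD library 3 of 72 h).

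No pairing by replicate number held at every time. Deviations of same-numbered actD and DMSO libraries correlated at -0.145 to -0.0403 (6 h), 0.0688 to 0.259 (72 h) and -0.027 to 0.188 (2 weeks) in RNA. Of 6 libraries, 0, 6 and 3 correlated best with their own number, a hint of pairs at 72 h from the data, not the design. In footprints these deviations correlated at -0.729 to -0.0601, -0.0575 to 0.0432 and -0.0271 to 0.374, with 0, 2 and 4 of 6. RNA and footprint libraries of 1 number, which enter translational efficiency, correlated at 0.0132 to 0.0903 in actD and 0.00453 to 0.132 in DMSO (6 h), 0.182 to 0.421 and 0.0634 to 0.157 (72 h), and 0.0807 to 0.218 and 0.106 to 0.132 (2 weeks), so at no time was every pair over 0.1. Every actD pair of 72 h and every DMSO pair of 2 weeks was over 0.1, and the main fit of translational efficiency did not use pairs. The replicate block, with same-numbered libraries as pairs, called 0 genes in every comparison (against 10 for translational efficiency at 72 h, where MGAT1 was 0.52 and MGAT2 -0.42), gave MGAT3 1.14 at 2 weeks, and turned MGAT1 at 72 h to -0.045 and MGAT5 at 2 weeks to 0.022. At 2 weeks MGAT5, which was near 0, was 0.011 by DESeq2, 0.0049 without the filter and 0.023 in 1 fit over 3 times. By library totals MGAT1 was -0.025, MGAT2 -0.016, MGAT4A -0.032, MGAT4B -0.034 and FUT8 -0.024. With the titles, by construction, MGAT1 was -0.13, MGAT2 -0.14, MGAT3 -0.51, MGAT4A -0.12, MGAT4B -0.12, MGAT5 1.3e-05 and FUT8 -0.13. The ratio of MGAT3 to MGAT1 in place of MGAT5 was -0.61 at 6 h. Apart from the titles, the cause was not tested.

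With each library left out, log2 differences ranged at 6 h from -0.012 to 0.41 (MGAT1), -0.078 to 0.23 (MGAT4A) and -0.070 to 0.17 (MGAT4B). They ranged at 72 h from -0.30 to 0.26 (MGAT1) and -0.40 to 0.010 (MGAT4A), and at 2 weeks from -0.043 to 0.97 (MGAT3) and -0.17 to 0.10 (MGAT5). For the change from 6 h to 72 h they ranged from -0.50 to 0.073 (MGAT1) and -0.053 to 0.27 (MGAT4B), and for the ratio at 2 weeks from -0.17 to 2.35. With the same direction and no call, they ranged for FUT8 at 6 h (-0.26 to -0.062) and 72 h (-0.71 without actD library 3 to -0.25 without actD library 2), for MGAT4B at 72 h (0.0055 to 0.32, without actD libraries 1 and 3), and in footprints of 72 h for MGAT2 (0.036 to 0.54) and MGAT1 (0.48 to 1.02, without actD libraries 1 and 3, the lowest edgeR adjusted p being 0.0623). For translational efficiency at 72 h they ranged from 0.25 to 0.84 (MGAT1) and -0.64 to -0.15 (MGAT2). MGAT3 and MGAT5 at 6 h and 72 h and MGAT2 at 72 h kept their direction in every setting run. Footprint depth let MGAT1 be tested at 72 h alone and MGAT2 at 72 h and 2 weeks, and no member at 6 h, which has no alternatives.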
